A study of Mus musculus with 12 samples.

Results

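The genes described here encode the machinery of MHC class I antigen presentation: the heavy chains H2-K1 and H2-D1, the light chain B2m, the peptide transporter subunits Tap1 and Tap2, the loading factors Tapbp, Calr and Pdia3, the peptide-trimming protease Erap1 and the transcriptional coactivator Nlrc5. The 10 genes were taken by symbol and matched to Entrez IDs; all 10 were among the 27179 gene IDs of the count tables. The libraries came from NIH3T3 cells, an immortalized mouse fibroblast line, that lacked endogenous RelA (RelA-/-) and carried a RelA-DsRed fusion, and that had been exposed to IL-1β at 0.2 ng/mL for 2 h in microfluidic devices. RelA, or p65, is a transcription-activating subunit of NF-κB, and whether the line is 1 clone is not given in the sources used here. The series also labels LPS, PAM and media samples, 3 each, but their 9 tables held the same bytes as the table of IL-1 replicate 3, so only the 3 IL-1 libraries were used. No stimulus could be set against media: the values below are levels in IL-1-treated cells, with no test, and do not show whether IL-1 changed a gene.

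Class I molecules display peptides from cytosolic proteins to CD8 T cells. Peptides cut by the proteasome are pumped into the endoplasmic reticulum by TAP, trimmed there, and loaded onto a heavy chain paired with B2m while tapasin (Tapbp), calreticulin (Calr) and ERp57 (Pdia3) hold the complex open. Fibroblasts carry moderate class I levels, and interferons raise most of these genes through IRF factors and NLRC5, while NF-κB acts on the heavy chain and B2m promoters.

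The 3 libraries held 17254518, 18091073 and 18578859 counts, and values are given as CPM (counts per 1e6 counts of the library). Whether each library had a culture of its own is not stated in the labels, and the SD over 3 libraries may thus be technical. Replicate 1 stood somewhat apart: of the 11224 genes detected (1 CPM or above in all 3), 45.7% were highest in it, and the share depended on gene length, as described below. Rela had 37.1, 30.5 and 38.9 CPM in replicates 1, 2 and 3, in which transcripts of the fusion and of the disrupted gene cannot be told apart. All 8 fibroblast markers were detected, with Vim at 3162 ± 76.6 CPM (SD, n = 3). The pan-leukocyte marker Ptprc had 3, 0 and 6 counts in replicates 1, 2 and 3, none of 4 endothelial and 4 epithelial markers was detected, and 4 of 7 macrophage and leukocyte markers were detected: Cd14 at 31.1 ± 4.60, Lyz2 at 9.69 ± 2.70, Cd68 at 2.05 ± 0.945 and Csf1r at 1.84 ± 0.379 CPM. The sum of the 7 was 39.9, 48.7 and 46.2 CPM in replicates 1, 2 and 3, most of it Cd14; Cd14 and Cd68 were lowest in replicate 1, Lyz2 and Csf1r in replicate 3, and Adgre1 and Itgam had 4 and 2 counts in replicate 1 and none in the others.

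Every one of the 10 class I genes was detected, against 41.3% of all gene IDs, but their levels differed widely. In bulk RNA, more cells with a transcript and more of it per cell cannot be told apart. Per kb of merged exons, the mean over 3 libraries ran from 0.341 ± 0.102 CPM per kb for Nlrc5 to 1694 ± 170.1 CPM per kb for B2m. The order from high to low was B2m, Pdia3 (385 ± 13.7), Calr (97.2 ± 15.3), Tapbp (87.0 ± 6.55), H2-D1 (62.3 ± 3.28), H2-K1 (41.0 ± 1.88), Erap1 (5.98 ± 0.320), Tap2 (5.10 ± 1.18), Tap1 (4.003 ± 1.31) and Nlrc5, all in CPM per kb (SD, n = 3). Neighbours in this order overlapped within their SD for Calr and Tapbp, for Erap1 and Tap2, and for Tap2 and Tap1; the other steps were wider than the SDs. Merged exons pool every annotated transcript of a gene. With the exons of RefSeq-linked transcripts alone H2-K1 was at 72.8 ± 3.34 CPM per kb, and Tap1, 1.85 times higher than with merged exons, at 7.42 ± 2.44 CPM per kb, which placed Tap1 above Tap2.

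**Figure D1:**
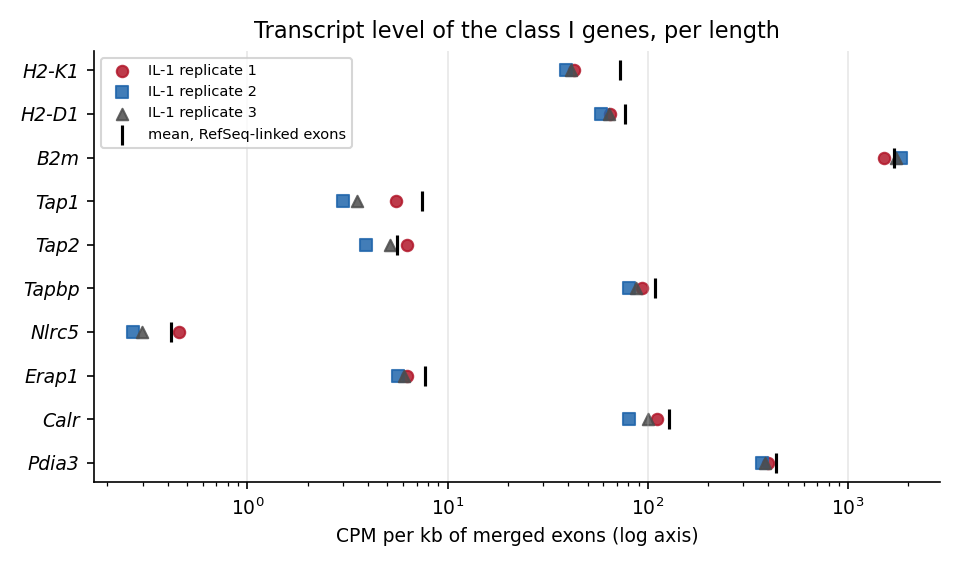
Transcript level of the 10 class I genes in CPM per kb of merged exons (log axis), with 1 symbol per IL-1 library; the vertical tick is the mean computed with RefSeq-linked exons only. B2m stands highest at 1694 CPM per kb, the chaperones Pdia3 and Calr follow, and Nlrc5 is lowest at 0.341 CPM per kb.

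The heavy chains are the polymorphic, peptide-binding part of the molecule. H2-K1 (Entrez 14972, chromosome 17, 33996012 to 34000619, GRCm38.p6) had 126, 115 and 121 CPM in replicates 1, 2 and 3, and H2-D1 (Entrez 14964, chromosome 17, 35263094 to 35267497) had 166, 151 and 165 CPM. Both were close in the 3 libraries, with a coefficient of variation of 4.58% for H2-K1 and 5.26% for H2-D1, below the 8.56% of the median detected gene. The ratio of H2-D1 to H2-K1 counts was 1.32, 1.32 and 1.36 in replicates 1, 2 and 3. Per kb of merged exons this ratio was 1.52 ± 0.0283 and with RefSeq-linked exons 1.05 ± 0.0196 (SD, n = 3), so H2-D1 was the higher in each library, by a margin that moved more with the gene model than between libraries. Class I genes are highly polymorphic and share sequence, and the NIH Swiss mice from which the line derives are not the C57BL/6J strain of the mm10 genome. How many reads of the line's own alleles were lost or assigned to a relative was not tested.

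B2m (Entrez 12010, chromosome 2, 122147687 to 122153082), the invariant light chain that pairs with every class I heavy chain, had 1298, 1585 and 1488 CPM in replicates 1, 2 and 3. It was the only one of the 10 genes that was highest in replicate 2 and lowest in replicate 1. Its coefficient of variation was 10.0%, against 0.617% from counting error.

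By the reads assigned to them, the heavy chains were few beside the light chain. Heavy chain reads lost or assigned to a relative, as described above, may change the ratios given here. Their part was not tested, and the SD between libraries does not cover it. Per kb of merged exons, H2-K1 and H2-D1 together came to 0.0711, 0.0530 and 0.0607 of B2m in replicates 1, 2 and 3, a mean of 0.0616 ± 0.00912 (SD, n = 3), or 16.5 ± 2.41 B2m transcripts per heavy chain transcript. With RefSeq-linked exons the ratio was 0.0890 ± 0.0132, and as plain counts 0.195 ± 0.0289. Adding the other 4 detected heavy chain genes (H2-T22, H2-T23, H2-T24 and H2-M3) raised it to 0.108 ± 0.0136 per kb of merged exons, or 9.37 ± 1.15 B2m transcripts per heavy chain transcript. Replicate 1 had the highest ratio under each of these choices and replicate 2 the lowest. H2-K1 and H2-D1 were ordered oppositely to B2m across the libraries. Among the 4 added genes, H2-T22 and H2-T24 were highest in replicate 1, H2-T23 in replicate 3 and H2-M3 in replicate 2. The exact Poisson intervals for counting error overlapped in all libraries for H2-T22, H2-T24 and H2-M3, so no order can be read for them. For H2-T23 only those of replicates 1 and 3 did not overlap.

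**Figure D2:**
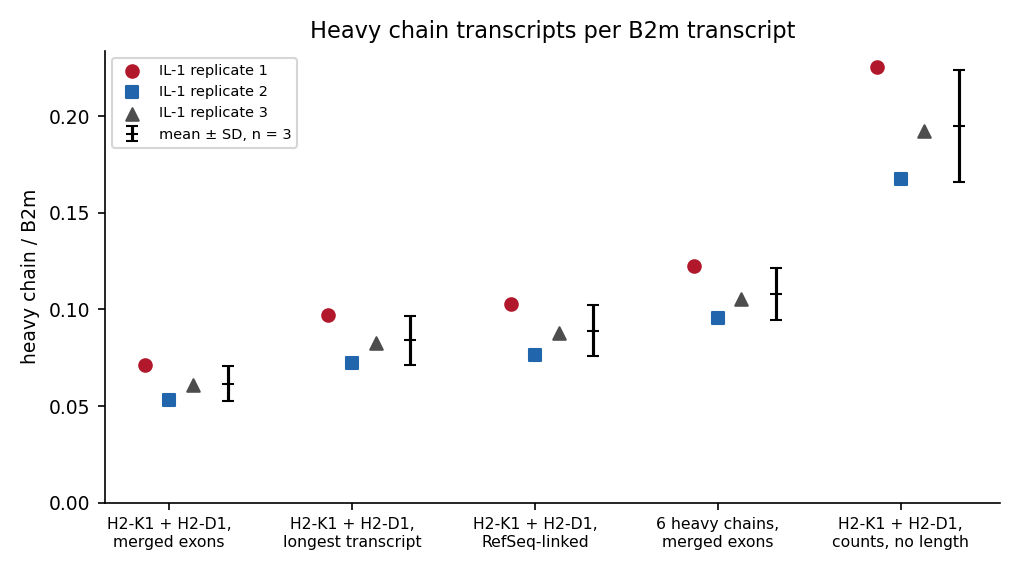
Ratio of heavy chain to B2m transcripts in each IL-1 library (symbols) with the mean ± SD over 3 libraries, for 5 ways of counting: H2-K1 and H2-D1 per kb by 3 definitions of gene length, 6 detected heavy chain genes per kb, and plain counts. B2m exceeds the heavy chains in each case, from 0.0616 per kb of merged exons to 0.195 for plain counts, and replicate 1 is always highest.

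The promoters of the 3 chain genes, whose products pair in the class I molecule, are printed here. Whether the sequence of these promoters bears on the transcript levels was not tested. Each line gives the 250 bases before a transcript start in the RefSeq promoter table, 5′ to 3′ on the gene's strand, from RefSeq on GRCm38.p6: chr17:34000348-34000597 (minus strand) for H2-K1, chr17:35262844-35263093 (plus strand) for H2-D1 and chr2:122147437-122147686 (plus strand) for B2m. For H2-K1 that table has a pair of starts, both inside the gene's annotated span; the outer one is used, and all 3 motifs lay upstream of either. Capitals mark, from left to right in the heavy chains, an NF-κB consensus, an IRF motif (AANNGAAA) and the pair TGACG and ATTGG 20 bases apart; in B2m the IRF motif comes first.
H2-K1: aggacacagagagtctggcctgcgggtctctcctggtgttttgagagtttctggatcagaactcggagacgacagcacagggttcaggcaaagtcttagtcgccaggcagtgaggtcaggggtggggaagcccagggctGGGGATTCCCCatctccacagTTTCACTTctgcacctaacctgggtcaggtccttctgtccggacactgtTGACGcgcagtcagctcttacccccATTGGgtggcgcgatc
H2-D1: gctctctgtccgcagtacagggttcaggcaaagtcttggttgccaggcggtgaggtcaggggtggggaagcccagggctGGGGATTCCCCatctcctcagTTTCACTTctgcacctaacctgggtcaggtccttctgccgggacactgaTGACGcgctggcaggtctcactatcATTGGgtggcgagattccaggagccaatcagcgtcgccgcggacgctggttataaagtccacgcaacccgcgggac
B2m: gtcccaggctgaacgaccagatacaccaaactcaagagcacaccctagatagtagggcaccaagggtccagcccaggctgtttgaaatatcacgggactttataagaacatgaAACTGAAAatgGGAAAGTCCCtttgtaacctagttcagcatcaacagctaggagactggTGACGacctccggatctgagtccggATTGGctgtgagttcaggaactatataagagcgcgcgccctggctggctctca

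The H2-K1 and H2-D1 stretches were identical at 167 of 190 aligned bases (87.9%). Promoter windows of 250 bases before to 50 after the start were searched on both strands in 27025 genes, which included 8 of the 10 class I genes; Tap2 and Nlrc5 were not among them. TGACG followed after 20 bases by ATTGG, an arrangement like the X2 and Y boxes, which CREB and NF-Y factors bind, was present in H2-K1, H2-D1 and B2m and in 0.0999% of all promoters (27 genes). The NF-κB consensus was present in these and in Calr, against 9.55% of all promoters, and the IRF motif in these, Calr and Erap1, against 26.7%. All 3 motifs together were found in 5 of the 27025 genes, among them H2-K1, H2-D1, B2m and the heavy chain gene H2-M3. In the heavy chains the NF-κB match spans overlapping copies of the consensus, and ATTGG, searched alone, was present in 41.1% of promoters. Motifs were chosen with the sequences in view, the sequence is that of the C57BL/6J reference, and a match shows letters, not binding.

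The other heavy chain genes ran from levels near that of H2-K1 down to no count. Of 17 listed heavy chain genes in the tables, 6 were detected: H2-T22 at 104 ± 3.57 CPM, H2-T23, the mouse Qa-1 molecule that shows leader peptides to NKG2A receptors, at 54.3 ± 3.72 CPM, H2-M3, which presents formylated peptides, at 36.03 ± 1.24 CPM, and H2-T24 at 8.04 ± 1.36 CPM, beside H2-K1 and H2-D1 (SD, n = 3). H2-T22 reached 0.741 ± 0.0389 of H2-K1 per kb of merged exons. H2-T10 lay just under the detection minimum, with 0.811, 0.995 and 0.700 CPM in replicates 1, 2 and 3, and H2-M2 had 2, 6 and 9 counts. The Q genes stood at or near the floor: H2-Q6 and H2-Q7 had no count, so that up to 0.0556 CPM (3 counts in all libraries summed) would have gone unseen, H2-Q1 had 1 count in all and H2-Q10 had 0, 3 and 0 counts in replicates 1, 2 and 3. These genes are near-identical copies, and reads dropped as ambiguous would also give 0; this was not tested.

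Tap1 and Tap2 encode the subunits of the transporter that carries peptides into the endoplasmic reticulum, and both genes were low and uneven. Tap1 (Entrez 21354, chromosome 17, 34187556 to 34197225) had 30.1, 16.5 and 19.2 CPM in replicates 1, 2 and 3. In replicate 1 it was 1.69-fold the mean of the others, the largest such ratio of the 10 genes. Tap2 (Entrez 21355, chromosome 17, 34204479 to 34216321) had 23.6, 14.7 and 19.6 CPM, or 1.38-fold in replicate 1. Their coefficients of variation, 32.8% for Tap1 and 23.1% for Tap2, exceeded counting errors of 5.06% and 5.38%. Per kb of merged exons, Tap1 was 0.880, 0.774 and 0.677 of Tap2 in replicates 1, 2 and 3. The counting errors of both genes enter each ratio, and the spread of the ratio was not tested against them. With RefSeq-linked exons the ratio was 1.49, 1.31 and 1.14, so which subunit was higher depended on the gene model, while replicate 1 had the highest ratio under both. Tap1 shares 212 bases of exon with Psmb9 on the opposite strand and Tap2 shares 533 bases with the antisense Gm15821, and the strand setting of the counting is not given in the sources used here, so reads there cannot be told apart.

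Tapbp, which encodes tapasin, the bridge between TAP and the empty heavy chain, was far more abundant than the transporter. Tapbp (Entrez 21356, chromosome 17, 33919478 to 33929290) had 339, 291 and 317 CPM in replicates 1, 2 and 3. Per kb of merged exons it stood 16.996, 26.7 and 24.9 times above Tap1 in replicates 1, 2 and 3, a mean of 22.9 ± 5.15 (SD, n = 3), and 15.4 ± 3.48 times with RefSeq-linked exons. The gap was narrowest in replicate 1, where Tap1 was highest. Its relative Tapbpl (TAPBPR), a second peptide editor, was at 27.1 ± 2.45 CPM, or 11.5 ± 1.04 CPM per kb against 87.0 ± 6.55 CPM per kb for Tapbp. Exons of Tapbp share 904 bases with the antisense Gm19412 and 149 bases with Zbtb22 on the same strand.

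Calr and Pdia3 serve other glycoproteins of the endoplasmic reticulum as well as class I. Per kb they had the highest means of the 10 genes after B2m. However, Calr and Tapbp overlapped within their SD, and Tapbp was above Calr in plain CPM. Pdia3 (Entrez 14827, chromosome 2, 121413902 to 121438687) had 1255, 1169 and 1204 CPM in replicates 1, 2 and 3 and the lowest coefficient of variation of the 10, 3.56%. Calr (Entrez 12317, chromosome 8, 84842088 to 84846931) was less even, with 318, 232 and 289 CPM. Per kb of merged exons Pdia3 exceeded Calr by 3.62, 4.62 and 3.82 times in replicates 1, 2 and 3. Canx, the membrane-bound counterpart of calreticulin, had 666, 575 and 621 CPM, in the same library order as Calr, and was 1.37 ± 0.129 times as abundant as Calr per kb (SD, n = 3). Of 11 other loading and folding factors 10 were detected, led by Hspa5 (BiP) at 1621 ± 59.5 CPM. P4hb, a protein disulfide isomerase, followed at 1082 ± 31.6 CPM and its relative Pdia6 at 721 ± 11.5 CPM. Of the 10 detected factors 6 were highest in replicate 1, against 45.7% of all detected genes, and the part of length was not tested.

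Erap1 (Entrez 80898, chromosome 13, 74639573 to 74693205), which trims the amino end of peptides to fit the class I groove, had 45.5, 41.0 and 44.1 CPM in replicates 1, 2 and 3, with a coefficient of variation of 5.35%. Its exons share 834 bases with Cast on the opposite strand. Of 7 other peptidases all were detected, led by the leucine aminopeptidase Lap3 at 371 ± 9.19 CPM, the tripeptidyl peptidase Tpp2 at 243 ± 18.7 CPM and the bleomycin hydrolase Blmh at 203 ± 1.04 CPM. Per kb of merged exons these came to 120 ± 2.97, 24.1 ± 1.86 and 34.5 ± 0.177 CPM per kb, against 5.98 ± 0.320 CPM per kb for Erap1.

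Nlrc5 (Entrez 434341, chromosome 8, 94434335 to 94527272), the coactivator of class I genes, was the least abundant of the 10, with 67, 41 and 47 counts, or 3.88, 2.27 and 2.53 CPM, in replicates 1, 2 and 3. Replicate 1 was 1.62-fold the mean of the others. Its coefficient of variation was 29.98%, against 13.9% from counting error. The exact Poisson 95% intervals overlapped, at 3.01 to 4.93 CPM in replicate 1, 1.63 to 3.07 CPM in replicate 2 and 1.86 to 3.36 CPM in replicate 3. Exons of Nlrc5 share 78 bases with 9330175E14Rik on the opposite strand. The class II counterpart of Nlrc5, Ciita, had 3, 2 and 1 counts.

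Across the 10 genes, 9 were highest in replicate 1, against 45.7% of all detected genes; B2m was highest in replicate 2, against 27.1%, and none in replicate 3, against 27.3%. The same 9 were lowest in replicate 2, against 41.9% of detected genes, B2m in replicate 1, against 30.2%, and none in replicate 3, against 27.9%. Each of the 9 thus had the order replicate 1, replicate 3, replicate 2 from high to low, against 28.3% of all detected genes. B2m had the reverse order, shared by 16.5%. The exact Poisson 95% intervals of replicates 1 and 3 overlapped for H2-K1, H2-D1, Tap2, Erap1 and Nlrc5. Those of replicates 2 and 3 overlapped for H2-K1, Tap1, Erap1 and Nlrc5. Of the 9, only Tapbp, Calr and Pdia3 thus had the full order beyond counting error. Most of these differences were small. In 6 of the 9, namely Calr (1.22-fold), Tapbp (1.11-fold), Erap1 (1.07-fold), H2-K1 (1.07-fold), Pdia3 (1.06-fold) and H2-D1 (1.05-fold), replicate 1 was less than 25% above the mean of the others. Only Tap1, Nlrc5 and Tap2 stood 25% or more above it, 3 of 10 against 10.9% of all detected genes. Against replicate 3 alone, Tap1 was 1.57-fold and Nlrc5 1.53-fold, while Tap2, at 1.20-fold, no longer reached that mark; against replicate 2 alone Calr reached it too, at 1.37-fold. With TMM or relative log expression factors H2-D1 was highest in replicate 3, which left 8 of 10. The 45.7% was computed with library totals only, so it is not the share for these factors. With them the median log2 ratio of replicate 1 over all detected genes fell from 0.04 to 0.002 (TMM) and -0.0007 (relative log expression).

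**Figure D3:**
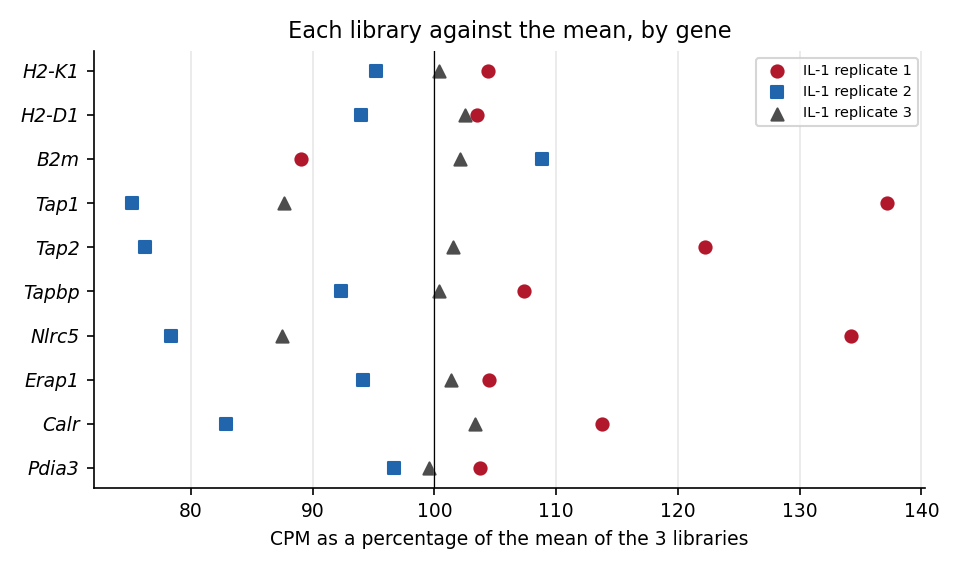
CPM of each class I gene in the 3 IL-1 libraries as a percentage of the mean of the 3 libraries. Replicate 1 is on the right for 9 genes and on the left for B2m; Tap1, Nlrc5 and Tap2 spread most, and Pdia3, H2-K1 and H2-D1 least.

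Gene length moved with the difference between libraries. Among detected genes with a known length, 5.35% of the 561 whose RefSeq-linked exons were shorter than 1 kb were highest in replicate 1, against 24.2% at 1 to 2 kb, 50.3% at 2 to 4 kb, 59.9% at 4 to 6 kb and 58.1% at 6 kb or more. The median log2 ratio of replicate 1 to the mean of the others was -0.22 under 1 kb and 0.07 at 2 to 4 kb. B2m, with 0.860 kb, had a log2 ratio of -0.24, close to the median of its length class. H2-D1 (0.08), Pdia3 (0.08) and Erap1 (0.10) also lay near the medians of theirs, 0.07 for the first pair and 0.12 for Erap1. Tapbp (0.16) and Calr (0.29) lay higher, at percentile 68.4 and 86.7 of the 4285 genes at 2 to 4 kb, and H2-K1 (0.09) at percentile 82.2 of the 2095 genes at 1 to 2 kb. Tap1 (0.74) and Tap2 (0.45) lay at percentile 99.6 and 96.0 of their class, and Nlrc5 (0.60) at percentile 98.2 of the 1550 genes of 6 kb or more. The higher heavy chain to B2m ratio of replicate 1 therefore compares genes of length classes whose medians differ between the libraries; the part of length in it was not tested.

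**Figure D4:**
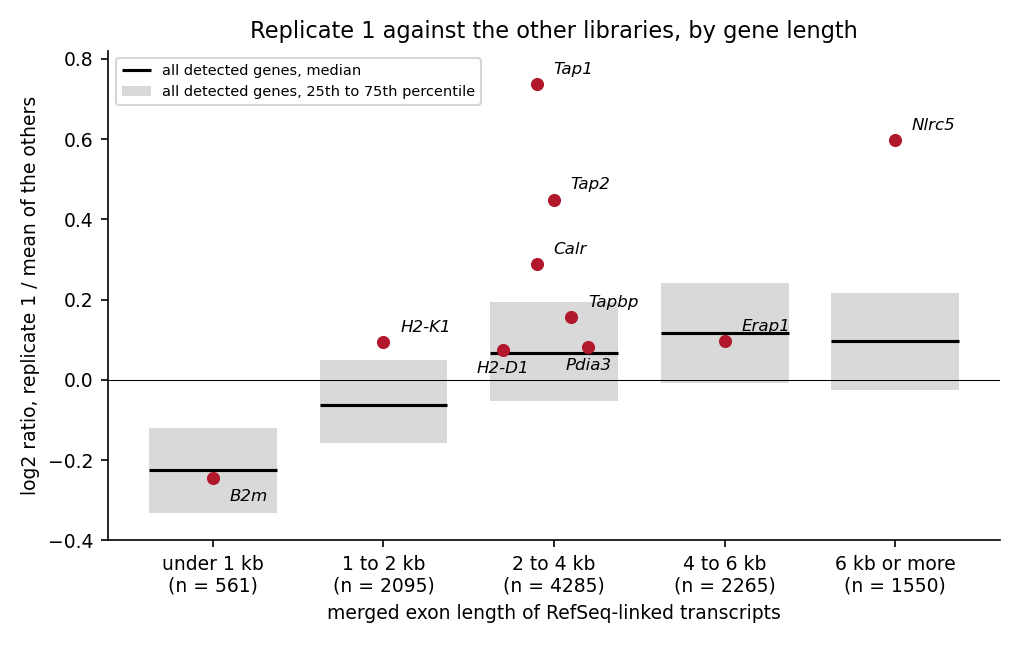
Log2 ratio of CPM in replicate 1 to the mean of the other libraries by length of RefSeq-linked exons. Grey boxes span the 25th to 75th percentile of all detected genes, black lines the median, and red points the 10 class I genes: B2m, H2-D1, Pdia3 and Erap1 lie near the line of their class, while Tap1, Tap2 and Nlrc5 lie well above it.

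Genes upstream and around the pathway differed in which library was highest. Of the 5 immunoproteasome and PA28 genes, which shape and enlarge the peptide supply, none was highest in replicate 1, against 45.7% of all detected genes, and 4 were highest in replicate 2, against 27.1%. Their RefSeq-linked exons span 976 to 1628 bp, lengths at which 5.35% (under 1 kb) and 24.2% (1 to 2 kb) of detected genes were highest in replicate 1, and the part of length was not tested. Psmb9, whose start lies beside that of Tap1, had 5.85, 4.201 and 6.19 CPM in replicates 1, 2 and 3. Its exact Poisson 95% intervals for replicates 1 and 3 overlapped, at 4.77 to 7.11 and 5.11 to 7.43 CPM, so no order of these libraries can be read for it. Psmb8, which lies between Tap1 and Tap2, had 7.53, 8.90 and 5.71 CPM. These inducible catalytic subunits were scarce beside the constitutive ones they replace: per kb of merged exons, Psmb8 was 0.0108 ± 0.00232 of Psmb5 and Psmb9 0.00736 ± 0.00158 of Psmb6 (SD, n = 3). Psmb10 was not, at 241 ± 10.6 CPM and 1.16 ± 0.0339 of Psmb7 per kb of merged exons, or 0.510 ± 0.0150 with RefSeq-linked exons. Psme1 and Psme2, the subunits of the PA28 activator, were at 294 ± 17.2 and 167 ± 14.7 CPM, and Psmb5, Psmb6 and Psmb7 at 182 ± 1.79, 378 ± 17.9 and 418 ± 29.8 CPM.

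Among the pathway lists, regulators of class I transcription had the highest median ratio of replicate 1 to the other libraries. Of 12 detected, 7 were highest in replicate 1, against 45.7% of all detected genes, and 4 in replicate 2, against 27.1%. In replicate 1, 6 stood 25% or more above the mean of the others, against 10.9%, with a median log2 ratio of 0.26 against 0.04 over all detected genes. The RefSeq-linked exons of all 12 lie between 2 and 6 kb, where 50.3% (2 to 4 kb) and 59.9% (4 to 6 kb) of detected genes were highest in replicate 1, and the part of length was not tested. Stat2, which carries type I interferon signals, had 55.0, 26.8 and 34.8 CPM in replicates 1, 2 and 3, and was highest in replicate 1 by 1.79-fold over the mean of the others. Irf1, an interferon-induced activator of class I genes, differed little between libraries, with 78.4, 70.2 and 70.1 CPM. Nfyb, a subunit of the factor that binds the CCAAT box, was at 88.0 ± 6.91 CPM, and Rfx5, which binds the X box, was at 14.1 ± 0.767 CPM. The interferon genes Ifnb1, Ifna4 and Ifng had no count, while all 7 listed receptor and kinase genes were detected. The most abundant were Ifngr2 at 145 ± 7.14 CPM, Jak1 at 117 ± 15.8 CPM and Ifngr1 at 90.6 ± 4.80 CPM. Of these 7 receptor and kinase genes 2 were highest in replicate 1, against 45.7% of all detected genes, and the part of length was not tested.

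**Figure D5:**
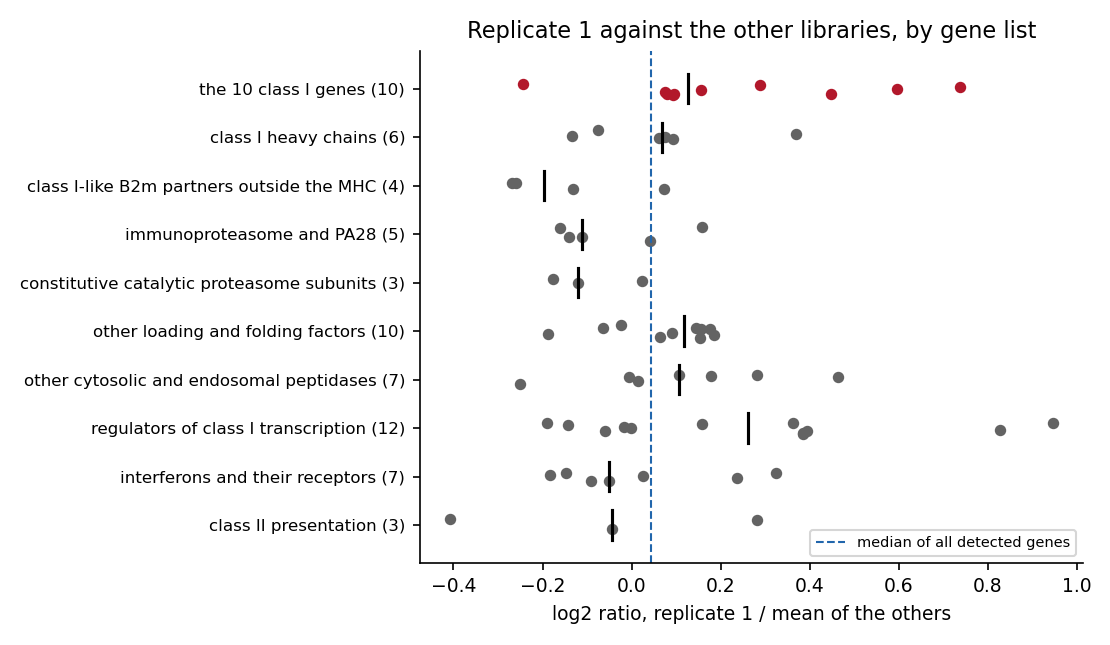
Log2 ratio of CPM in replicate 1 to the mean of the other libraries for the detected genes of each list (number in brackets), with the list median as a black line and the median of all detected genes, 0.04, dashed. The 10 class I genes (red) have a median of 0.13; regulators of class I transcription have the highest median, 0.26, and the proteasome lists lie mostly below the dashed line.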

How the data were processed

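RNA levels were measured by sequencing of polyA RNA. Per the labels' protocols, cells were lysed with detergent, reverse-transcribed without RNA extraction, pre-amplified for 10 cycles and made into tagmentation libraries. The deposited tables hold raw counts per Entrez gene ID; CASAVA, STAR, featureCounts and mm10 are named in the submitters' processing notes, and the sources used here give no version, annotation, strand setting or multi-mapping rule. No molecular identifiers are mentioned, so counts are reads and intervals cover counting error only. The tables of 9 samples were copies of IL-1 replicate 3 and were left out.

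CPM were computed from library totals. Symbols and positions came from RefSeq on GRCm38.p6 (25275 of 27179 IDs matched; the others took 2.14% ± 0.169 of counts, SD, n = 3, and stayed in the totals). Lengths came from GENCODE M21 by Entrez ID: merged exons of all transcripts, the longest transcript, or merged exons of RefSeq-linked transcripts. Log2 ratios used a pseudocount of 0.5 CPM. With 1 group there was no test. All 10 genes are named; of each list, the 3 most abundant genes and genes fixed by name, and some at or near 0 were added after their values were seen, as were Stat2, Rfx5, Hfe, H2-M3, Ciita, H2-T24, H2-Q1, H2-Q6, H2-Q7 and H2-Q10. A gene that this rule names is not reported here. The class I genes and lists were chosen with earlier results of these data known. The calculations were tested on simulated data. Scaling factors came from edgeR 4.0.16 (R 4.3.3); Python 3.11.15, numpy 2.4.6, pandas 2.3.3 and scipy 1.17.1 were used. Alternatives were other scaling factors, detection minimums, gene lengths, heavy chain sets and leaving out each library.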

Additional observations from a re-analysis of the deposited data

How the results depend on the processing

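No paired analysis was possible because the LPS, PAM and media tables were copies of an IL-1 table. The heavy chain to B2m ratio, 0.0616 per kb of merged exons, moved by more than its SD with the longest transcript (0.0839), with RefSeq-linked exons (0.0890, an alternative added after the data were seen), as plain counts (0.195) and with all detected heavy chain genes (0.108), each by construction of the length or the sum; leaving out 1 library gave 0.0569 to 0.0659. All 10 genes stayed detected at 0.5 CPM, at 2 CPM, with other scaling factors and without any 1 library. The number highest in replicate 1 was 9, or 8 with TMM or relative log expression factors, and leaving out replicate 2 or 3 gave 9; the number at least 25% above the others in replicate 1 was 3, and 2 to 4 when replicate 2 or 3 was left out. All 50 recomputed mean CPM lay within 1 SD, a bound that leaving out 1 of 3 libraries cannot pass; of 20 levels per kb recomputed with other lengths, 6 lay within 1 SD, so the gene model limits levels per kb more than the spread between libraries does. Depth limits Nlrc5, at 41 to 67 counts a library. The effect of heavy chain reads lost or assigned to a relative on the ratio to B2m was not tested.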

Other observations

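B2m also pairs with some class I-like molecules outside the MHC. Of 6 listed class I-like genes there, 4 were detected, against 41.3% of all gene IDs; whether each product pairs with B2m was not tested. Fcgrt, the neonatal Fc receptor, was at 54.9 ± 5.70 CPM, Mr1, which presents vitamin B metabolites, at 33.0 ± 3.66 CPM and Cd1d1, which presents lipids, at 14.1 ± 1.22 CPM (SD, n = 3). These were highest in replicate 2 and lowest in replicate 1, the order of B2m, which 16.5% of all detected genes had. Hfe, which regulates iron uptake, had 8.06, 7.35 and 7.91 CPM in replicates 1, 2 and 3. The exact Poisson intervals of all libraries overlapped for Cd1d1 and for Hfe, so no order can be read for them. For Fcgrt and Mr1 those of replicates 2 and 3 overlapped, while that of replicate 1 lay below that of replicate 2. The part of length was not tested. Azgp1 had no count.

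The class II chains were at or near 0. H2-Aa had no count, H2-Ab1 had 0, 1 and 1 counts in replicates 1, 2 and 3, and H2-Eb1 1 count in all. The accessory genes H2-DMb1 and H2-DMa, whose products edit class II peptides, were at 22.3 ± 0.439 and 5.61 ± 0.957 CPM, and Cd74, the invariant chain, at 9.50 ± 1.70 CPM (SD, n = 3).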
